A study of Mus musculus with 4 samples.

Results

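The receptors for interleukin-12 (IL-12), IL-18, interferon-gamma (IFN-γ), type I interferon and IL-6 are each built from a pair of chains, and the 10 genes of these 5 receptors were compared between Mettl3 knockout and wild-type (WT) invariant natural killer T (iNKT) cells of the mouse thymus. The genes are Il12rb1 and Il12rb2, Il18r1 and Il18rap, Ifngr1 and Ifngr2, Ifnar1 and Ifnar2, and Il6ra and Il6st. They were taken by name from a table of 53715 gene IDs, and all 10 were among the 14185 genes with enough counts to be tested. In the knockout 3 chains fell (Il12rb2, Il18rap and Ifngr1), 2 rose (Ifngr2 and Il6ra) and 5 did not pass the test. The shares called over all tested genes were 1.51% lower and 1.09% higher. The calls of the chains did not all hold when 1 library was left out. In each receptor the ratio of the chains within a library did not overlap between the genotypes, though an exact test of 2 against 2 libraries cannot reach 0.05. Each receptor holds a chain whose own level did not overlap, so the ratios are not separate results. Of all tested genes, 25.4% lay above WT in both knockout libraries and 24.9% below. The share among ratios of other gene pairs was not computed.

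iNKT cells are T cells whose receptor, built on an invariant alpha chain, binds lipids shown on CD1d. They answer cytokines as well as antigen: IL-12 and IL-18 from myeloid cells drive IFN-γ production by the NKT1 subset, and IFN-γ, type I interferon and IL-6 act back on lymphocytes through the other receptors. In the IL-12 receptor, Il12rb1 encodes a chain shared with the IL-23 receptor, and Il12rb2 the chain that recruits STAT4. IL-18 binds the chain from Il18r1 and then the accessory chain from Il18rap, which together signal through MyD88. IFN-γ is bound by the Ifngr1 product, and Ifngr2 encodes the chain that brings in JAK2. Type I interferon is bound by the Ifnar2 and Ifnar1 products, which carry JAK1 and TYK2, and IL-6 is bound by the Il6ra product before it engages gp130, the shared signalling chain encoded by Il6st.

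Cells were sorted from the thymus as live (7AAD-negative), CD1d-tetramer-positive and TCRβ-positive, so none of the receptors described here was used in the sort. The knockout libraries came from Mettl3fl/flCD4-cre mice, which carry a floxed Mettl3 gene and Cre recombinase under Cd4 control, and the WT libraries came from mice labelled WT, with no floxed allele or Cre named. All were C57BL/6 mice of 6 to 8 weeks. Each genotype gave 2 libraries, prepared with Smart-seq2, which copies whole transcripts and keeps no record of the strand. The Cd4 promoter switches Cre on by the CD4+CD8+ thymocyte stage, so deletion is not limited to iNKT cells, and other T cells of these thymuses can carry it. METTL3 is the catalytic subunit of the enzyme complex that writes N6-methyladenosine (m6A) on mRNA; m6A itself was not measured in these libraries.

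Counts over genes totalled 24374587 to 28316016 per library, and the smallest count of any of the 10 chains was 454 reads. The targeted gene, Mettl3, had 78.1 and 91.4 CPM (counts relative to the TMM-scaled size of the library) in the knockout libraries, against 92.2 and 123.6 CPM in the WT libraries. The difference, -0.35 on the log2 scale (SE 0.19, edgeR adjusted p = 0.357; 95% interval -0.79 to 0.09), was not called. Reads from exons outside the floxed segment still count toward this gene, so its level does not check the deletion. Of all genes tested, 2.59% were called at an adjusted p under 0.05, with 1.09% higher and 1.51% lower in the knockout; the median log2 fold change was 0.02. Whether each library is a separate animal is not given by the labels, so p-values reflect the spread between libraries alone. The samples are bulk, so fewer cells of a type and less RNA per cell cannot be told apart.

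All 10 receptor transcripts hold the bases GGACT, a common form of the m6A consensus, at least once in the GENCODE transcript with the longest coding sequence, as do 91.6% of the transcripts of 11684 tested protein-coding genes. Their density, searched on the transcript strand only, lay between 0.205 per kb in Il18rap and 3.28 per kb in Ifnar2, against a median of 1.053 per kb over the tested genes. A match is a run of letters, not a measured m6A site. For both chains of the 3 receptors whose chain ratio differed more than 3-fold (IL-12, IFN-γ and IL-6), the copy nearest the stop codon is shown within 25 bases of GRCm38, 5′ to 3′, with every GGACT in the window in capitals; the Ifngr2 window holds 2 copies, of which the downstream one is nearest.
Il12rb2 (chr6:67376098-67376122, minus strand): actgccgcgtGGACTccagcgatgg
Il12rb1 (chr8:70820717-70820741, plus strand): tggctagggaGGACTgtccccgtgg
Ifngr2 (chr16:91562932-91562956, plus strand): aGGACTcctgGGACTccgtgtcaat
Ifngr1 (chr10:19609486-19609510, plus strand): gctccatatcGGACTtggaatctct
Il6ra (chr3:89870542-89870566, minus strand): ttcgatctcaGGACTtcaggcgaaa
Il6st (chr13:112504437-112504461, plus strand): ccgcagtgaaGGACTggctcctgaa
Il12rb2, which fell, held 2 copies (0.667 per kb), the nearest 2732 bases before the stop codon and ahead of the coding sequence, against 6 copies (2.09 per kb) in Il12rb1, the nearest 140 bases before it. Ifngr2, which rose, held 4 copies (1.08 per kb) and Ifngr1, which fell, 3 copies (1.42 per kb), the nearest 59 and 188 bases before the stop codon. Il6ra, which rose, held 6 copies (1.79 per kb), the nearest 609 bases after the stop codon, and Il6st held 10 (1.15 per kb), all after it, the nearest at 6 bases.

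**Figure D1:**
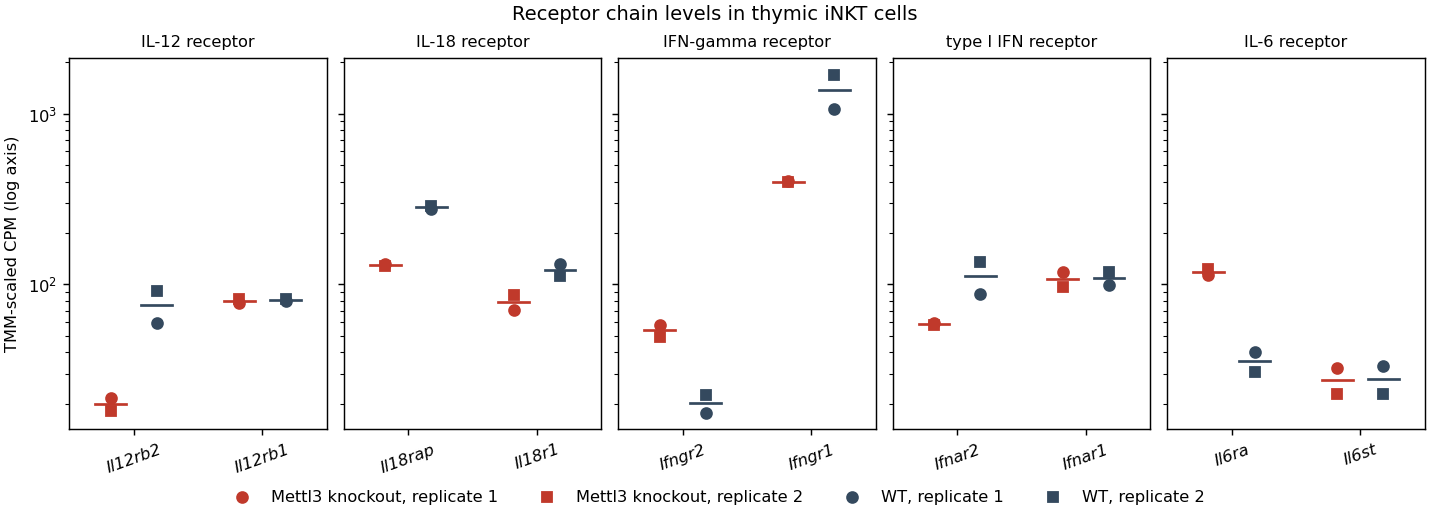
TMM-scaled CPM (log axis) of the 2 chains of each receptor in each library, with the Mettl3 knockout left of WT and a bar at each mean (n = 2 libraries). Il12rb2, Il18rap and Ifngr1 sit lower and Ifngr2 and Il6ra higher in the knockout, while Il12rb1, Ifnar1 and Il6st overlap.

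In the IL-12 receptor the chain that recruits STAT4 was lower in the knockout, and its partner overlapped between the genotypes. Il12rb2 fell 3.76-fold in the knockout, while Il12rb1, the chain shared with the IL-23 receptor, was at nearly equal levels. Il12rb2 (ENSMUSG00000018341.12; GRCm38 chr6:67291318-67376188, minus strand) had 21.6 and 18.2 CPM in the knockout libraries, against 59.1 and 91.5 CPM in the WT libraries. Both knockout libraries lay below both WT libraries, and the WT libraries were farther from each other than the knockout ones. Its log2 fold change was -1.91 (SE 0.28; edgeR adjusted p = 0.0202). Il12rb1 (ENSMUSG00000000791.9; chr8:70808449-70821424, plus strand) had 78.3 and 82.5 CPM in the knockout and 80.4 and 82.7 CPM in WT. The genotypes overlapped, and the log2 fold change was -0.02 (95% interval -0.37 to 0.33, SE 0.15; edgeR adjusted p = 0.962).

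Per kb of exon, a library held 0.299 and 0.239 Il12rb2 reads for each Il12rb1 read in the knockout, against 0.796 and 1.20 in WT. The ratio was thus 3.65-fold lower in the knockout, a difference of -1.87 on the log2 scale, with an SD between libraries of 0.23 in the knockout and 0.42 in WT (n = 2 each). The exact two-sided permutation test gave p = 0.333, which is the smallest that 2 against 2 libraries allow, before and after Benjamini-Hochberg adjustment over the 5 receptors. The same p holds for every ratio below, since none overlapped between the genotypes. Of the exon bases of Il12rb2, 40.0% also lie in exons of Serbp1, a gene on the other strand, and reads there cannot be assigned without strand. The level of Il12rb2 per kb and its ratio to Il12rb1 may therefore be too low or too high. Serbp1 itself had 1188 and 1187 CPM in the knockout and 1155 and 1070 CPM in WT (log2 fold change 0.09, edgeR adjusted p = 0.574). The call of Il12rb2 did not hold without knockout replicate 1 (edgeR adjusted p = 0.104), knockout replicate 2 (0.138) or WT replicate 2 (0.0817), with log2 fold changes of -2.21 to -1.57 over the libraries left out.

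The upstream sequence of Il12rb2 is shown because it holds one of the few motif matches among the receptor promoters. RefSeq promoters of build GRCm38.p6 were matched for 9 of the 10 genes, with 11 start sites, and the 250 bases before each start were searched on both strands for a T-box half-site (GGTGTGA), a STAT element (TTCNNNGAA), an interferon-stimulated response element and a cAMP response element (TGACGTCA). Of 32851 mouse promoters of that length, 3.33%, 7.02%, 2.98% and 1.55% hold these motifs in the order given. Only the STAT element matched: in Il12rb2 at 123 bases before the start, in Ifnar2 at 214 bases, and in 1 of the 3 Il18r1 start sites at 2 places. A match does not show binding, and an absent match says nothing of a factor. The 250 bases before the start of Il12rb2 are given 5′ to 3′ on the gene's strand, with the STAT element in capitals.
Il12rb2 promoter (chr6:67376189-67376438, minus strand): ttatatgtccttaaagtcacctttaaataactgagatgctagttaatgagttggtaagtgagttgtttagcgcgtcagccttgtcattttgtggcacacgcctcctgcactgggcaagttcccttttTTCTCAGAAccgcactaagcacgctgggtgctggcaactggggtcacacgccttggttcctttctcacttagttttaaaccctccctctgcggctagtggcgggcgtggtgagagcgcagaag

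The IL-18 receptor chains lie side by side on chromosome 1, and both had lower levels in the knockout libraries, though the test was passed by Il18rap alone. Il18rap (ENSMUSG00000026068.11; GRCm38 chr1:40515362-40551705, plus strand), the accessory chain, had 131.1 and 127.9 CPM in the knockout libraries, against 274.7 and 289.5 CPM in the WT libraries. The libraries of each genotype were close to each other and the genotypes did not overlap. It fell 2.18-fold, a difference of -1.12 on the log2 scale (SE 0.11; edgeR adjusted p = 0.00558), the smallest adjusted p among the chains. Il18r1 (ENSMUSG00000026070.15; chr1:40465552-40500854, plus strand), the ligand-binding chain, had 70.9 and 86.7 CPM in the knockout and 131.0 and 111.7 CPM in WT. The genotypes did not overlap either, but the difference of -0.63 on the log2 scale (SE 0.17) did not pass (edgeR adjusted p = 0.102).

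Per kb of exon there were 1.32 and 1.05 Il18rap reads for each Il18r1 read in the knockout, against 1.495 and 1.85 in WT. The ratio was 1.41-fold lower in the knockout, or -0.50 on the log2 scale (SD 0.23 in the knockout and 0.22 in WT, n = 2 each). This was the smallest of the 5 ratio differences, and it spanned -0.66 to -0.33 over the libraries left out. Il18rap was not called without knockout replicate 1 (edgeR adjusted p = 0.0673) or knockout replicate 2 (0.0713), with nearly the same log2 fold changes (-1.17 to -1.09 over the libraries left out).

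The IFN-γ receptor chains moved in opposite directions. Ifngr1, the most highly expressed of the 10 chains, fell 3.44-fold, and Ifngr2 rose 2.69-fold. Ifngr1 (ENSMUSG00000020009.12; chromosome 10, matched without the ID's version) had 404 and 396 CPM in the knockout libraries, against 1069 and 1683 CPM in the WT libraries. The knockout libraries were almost equal, and both lay below the lower WT library. The log2 fold change was -1.78 (SE 0.20; edgeR adjusted p = 0.00746). Ifngr2 (ENSMUSG00000022965.7; chromosome 16, matched without the ID's version) had 58.1 and 49.5 CPM in the knockout and 17.8 and 22.4 CPM in WT. It is the scarcer chain in every library, and both knockout libraries lay above both WT libraries. The log2 fold change was 1.43 (SE 0.23; edgeR adjusted p = 0.0275).

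The levels of the IFN-γ receptor chains were closer to each other in the knockout. Per kb of exon, Ifngr1 exceeded Ifngr2 by 9.19-fold and 10.6-fold in the knockout libraries, against 79.4-fold and 99.3-fold in the WT libraries. The ratio of Ifngr2 to Ifngr1 was 9.02-fold higher in the knockout, a log2 difference of 3.17 (SD 0.14 in the knockout and 0.23 in WT, n = 2 each), the largest of the 5 receptors. It spanned 3.01 to 3.33 over the libraries left out. Ifngr1 was not called without knockout replicate 1 (edgeR adjusted p = 0.0750) or knockout replicate 2 (0.0831), and was called without either WT library. Ifngr2 lost its call whichever of the 4 libraries was left out (edgeR adjusted p = 0.167 and 0.121 without knockout replicates 1 and 2, 0.117 and 0.102 without WT replicates 1 and 2), with log2 fold changes of 1.26 to 1.60. The bases before the starts of both genes are shown, since the transcripts of 1 receptor moved in opposite directions; none of the searched motifs was found in them, so they hold no capitals. Their GC contents are 74.0% in Ifngr2 and 59.2% in Ifngr1.
Ifngr2 promoter (chr16:91546809-91547058, plus strand): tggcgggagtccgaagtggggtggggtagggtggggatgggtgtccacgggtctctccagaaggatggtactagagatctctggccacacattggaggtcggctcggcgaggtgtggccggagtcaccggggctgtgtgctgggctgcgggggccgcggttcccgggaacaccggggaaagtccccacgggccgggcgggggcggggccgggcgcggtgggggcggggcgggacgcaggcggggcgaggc
Ifngr1 promoter (chr10:19591699-19591948, plus strand): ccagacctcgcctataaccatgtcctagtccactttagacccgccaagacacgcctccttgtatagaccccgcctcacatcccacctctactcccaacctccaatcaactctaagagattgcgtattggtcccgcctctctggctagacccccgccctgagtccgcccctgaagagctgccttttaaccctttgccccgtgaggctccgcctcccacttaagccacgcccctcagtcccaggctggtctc

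**Figure D2:**
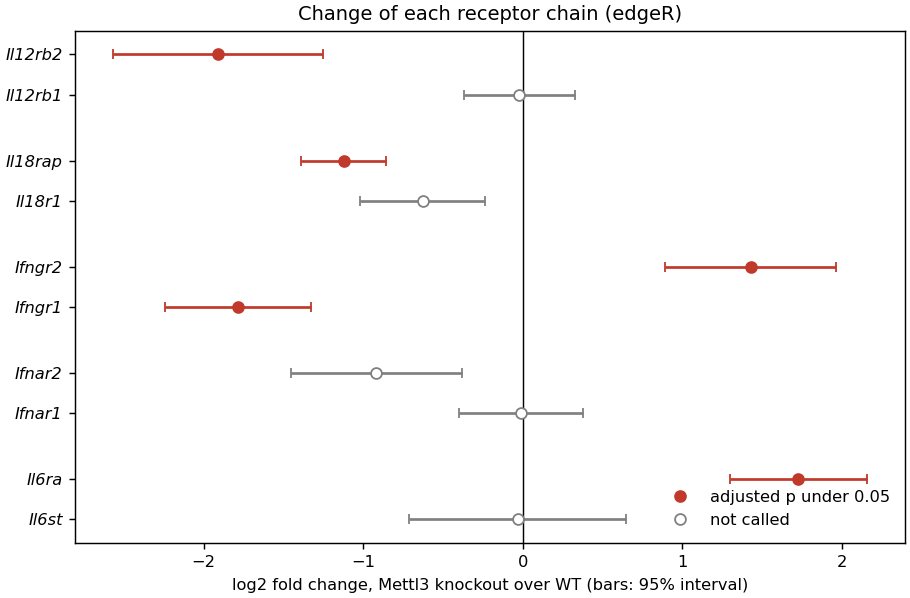
Log2 fold change of each receptor chain, Mettl3 knockout over WT, from edgeR, with 95% intervals; filled points passed an adjusted p of 0.05. The 2 chains of the IFN-γ receptor lie on opposite sides of 0, at 1.43 for Ifngr2 and -1.78 for Ifngr1.

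In the type I interferon receptor neither chain passed the test. Ifnar2 (ENSMUSG00000022971.18; GRCm38 chr16:91372783-91405589, plus strand), the high-affinity binding chain, had 59.6 and 58.1 CPM in the knockout libraries, against 87.6 and 135.5 CPM in the WT libraries. Both knockout libraries lay below both WT libraries, and the difference was -0.92 on the log2 scale (SE 0.23; edgeR adjusted p = 0.0866). Ifnar1 (ENSMUSG00000022967.12; chromosome 16, matched without the ID's version) had 118.0 and 96.9 CPM in the knockout and 99.1 and 118.2 CPM in WT. Its genotypes overlapped, with a difference of -0.01 on the log2 scale (95% interval -0.40 to 0.38, SE 0.17; edgeR adjusted p = 0.978). Per kb of exon there were 0.902 and 1.07 Ifnar2 reads for each Ifnar1 read in the knockout, against 1.58 and 2.05 in WT. The ratio was 1.83-fold lower in the knockout (log2 difference -0.87, SD 0.18 in the knockout and 0.26 in WT, n = 2 each). With 1 library left out the Ifnar2 difference spanned -1.21, without WT replicate 1 (edgeR adjusted p = 0.0443), to -0.58, without WT replicate 2 (edgeR adjusted p = 0.239), and it did not pass without knockout replicate 1 (0.282) or 2 (0.306). Of its exon bases, 9.46% lie in exons of Gm21970, a predicted gene with no count in any library.

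In the IL-6 receptor the ligand-binding chain rose and the shared signalling chain overlapped between the genotypes. Il6ra (ENSMUSG00000027947.11; GRCm38 chr3:89864059-89913196, minus strand) had 113.1 and 123.5 CPM in the knockout libraries, against 40.2 and 30.9 CPM in the WT libraries. The genotypes were far apart, with the lower knockout library well above the higher WT library. It rose 3.31-fold, a difference of 1.73 on the log2 scale (SE 0.18; edgeR adjusted p = 0.0068). Il6st (ENSMUSG00000021756.12; chr13:112464070-112510086, plus strand), which encodes gp130, had 32.4 and 22.9 CPM in the knockout and 33.4 and 22.9 CPM in WT. The spread within each genotype was larger than the difference between them, and the log2 fold change was -0.03 (95% interval -0.71 to 0.65, SE 0.29; edgeR adjusted p = 0.970).

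Per kb of merged exon a library held 4.48 and 6.93 Il6ra reads for each Il6st read in the knockout, against 1.55 and 1.73 in WT. The merged exons hold 8642 bases in Il6ra and 11099 in Il6st. The transcripts with the longest coding sequence hold 3343 and 8678, so the size of the ratio depends on the length used. The ratio was 3.40-fold higher in the knockout, a log2 difference of 1.77 (SD 0.44 in the knockout and 0.11 in WT, n = 2 each). Il6ra was not called without knockout replicate 1 (edgeR adjusted p = 0.0528) or knockout replicate 2 (0.0638). An antisense gene, Gm42809, covers 2.80% of the Il6ra exon bases and had 4.90 and 7.58 CPM in the knockout and 6.47 and 0 CPM in WT, far fewer reads than Il6ra.

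**Figure D3:**
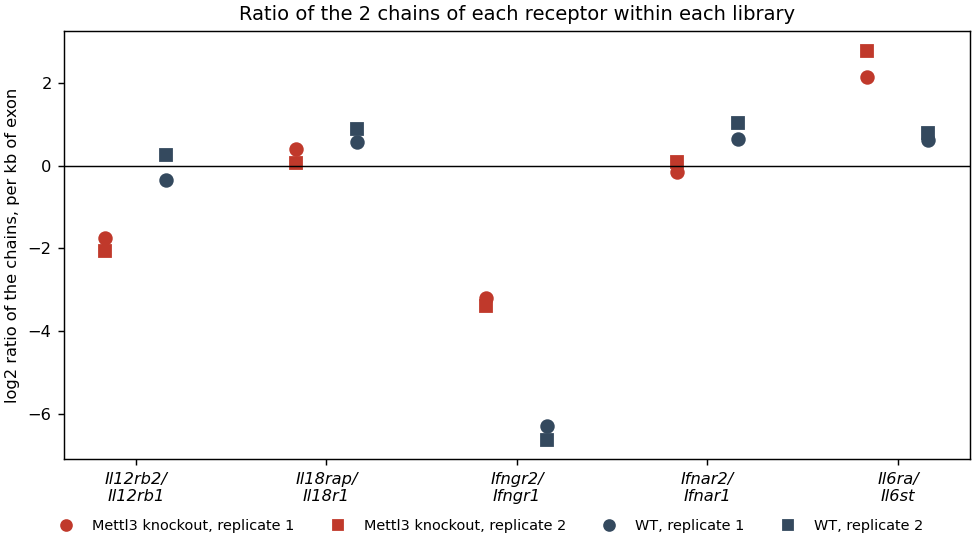
Log2 ratio of the 2 chains of each receptor within each library, from counts per kb of exon, with the Mettl3 knockout left of WT. A value of 0 means equal counts per kb. No receptor's genotypes overlap, where 25.4% of all single tested genes lay above WT in both knockout libraries and 24.9% below. The IFN-γ receptor has the widest gap, at -3.20 and -3.40 in the knockout and -6.31 and -6.63 in WT.

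Of the 10 chains, 5 were called by edgeR, 2 higher and 3 lower, where 2.59% of all tested genes were called. The chains were chosen with earlier results of these data known, so this comparison does not test them as a set. In 2 chains both knockout libraries lay above both WT libraries and in 5 both lay below, while 3 overlapped; over all tested genes these arrangements held for 25.4% above and 24.9% below. The median log2 fold change of the 10 chains was -0.33, against 0.02 over all tested genes. DESeq2 called 7 chains, adding Il18r1 (adjusted p = 0.0180) and Ifnar2 (adjusted p = 0.00404), where it called 9.45% of all tested genes. For the unadjusted counts that follow, the share of all tested genes is not given here. The edgeR count was 0 without knockout replicate 1 and 0 without knockout replicate 2 (6 and 7 chains at an unadjusted p under 0.05, against 7 with all libraries), 5 without WT replicate 1, where Ifnar2 replaced Ifngr2, and 3 without WT replicate 2, where Il12rb2 and Ifngr2 were no longer called.

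Levels were set per kb of merged exon, because genes differ in length. The merged length covers every annotated transcript of a gene, so the order of the chains depends on it. For Il6ra it is 8642 bases, against 3343 in the transcript with the longest coding sequence. The level of Il12rb2 is also uncertain, since 40.0% of its exon bases lie in exons of Serbp1. In the knockout Ifngr1 led at a mean of 140.4 CPM per kb, and Il12rb1 (19.6), Il18rap (19.2), Ifnar1 (18.1), Ifnar2 (17.7), Il18r1 (16.4), Ifngr2 (14.3) and Il6ra (13.7 CPM per kb) followed, each overlapping its neighbour in this order across the 2 libraries. Il12rb2 (5.25) and Il6st (2.49 CPM per kb) were lowest. In WT the order of the mean levels was Ifngr1 at 483.3, Il18rap at 41.8, Ifnar2 at 33.5, Il18r1 at 25.2, Il12rb1 at 19.9, Il12rb2 at 19.9, Ifnar1 at 18.3, Ifngr2 at 5.34, Il6ra at 4.11 and Il6st at 2.53 CPM per kb. There the libraries of neighbours overlapped from Il18rap to Il18r1 and from Il12rb1 to Ifnar1, and the 3 lowest chains were apart from each other. Ifngr1 stood above all others in every library, and Il6st was lowest in both genotypes.

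Ifnar2, Ifnar1 and Ifngr2 lie together on chromosome 16, apart from Ifngr1, and the IL-18 receptor genes lie in the IL-1 receptor group on chromosome 1. Over the 193 kb from Ifnar2 to Ifngr2, the neighbours did not share a direction. Il10rb, between the type I interferon receptor genes, encodes a chain of the IL-10 and lambda interferon receptors and had 60.2 and 58.0 CPM in the knockout and 97.5 and 157.9 CPM in WT (log2 fold change -1.11, SE 0.24; edgeR adjusted p = 0.0627). It thus sat as Ifnar2 did, below WT in both knockout libraries without passing. Ifnar1 overlapped, Ifngr2 rose, and Tmem50b, past Ifngr2, had a log2 fold change of -0.15 (edgeR adjusted p = 0.814).

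On chromosome 1 the genes from Il1r2 to Il18rap span 478 kb. Il1r1, the signalling IL-1 receptor, fell, with 2.80 and 8.43 CPM in the knockout and 38.7 and 28.2 CPM in WT (log2 fold change -2.59, SE 0.43; edgeR adjusted p = 0.0313). Il1rl2, an IL-36 receptor chain, had 43.1 and 36.0 CPM in the knockout and 21.3 and 9.75 CPM in WT and did not pass (log2 fold change 1.33; edgeR adjusted p = 0.0932). Il1rl1, the IL-33 receptor, ends 136 bases before Il18r1 begins; it had 0.389 and 0.281 CPM in the knockout and 4.77 and 1.23 CPM in WT (edgeR adjusted p = 0.138). Il1r2 was under 0.5 CPM in every library, and Map4k4, outside the group, had a log2 fold change of 0.10 (edgeR adjusted p = 0.878). The called genes of the group, Il1r1 and Il18rap, were therefore both lower in the knockout, with uncalled genes of either direction between them.

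**Figure D4:**
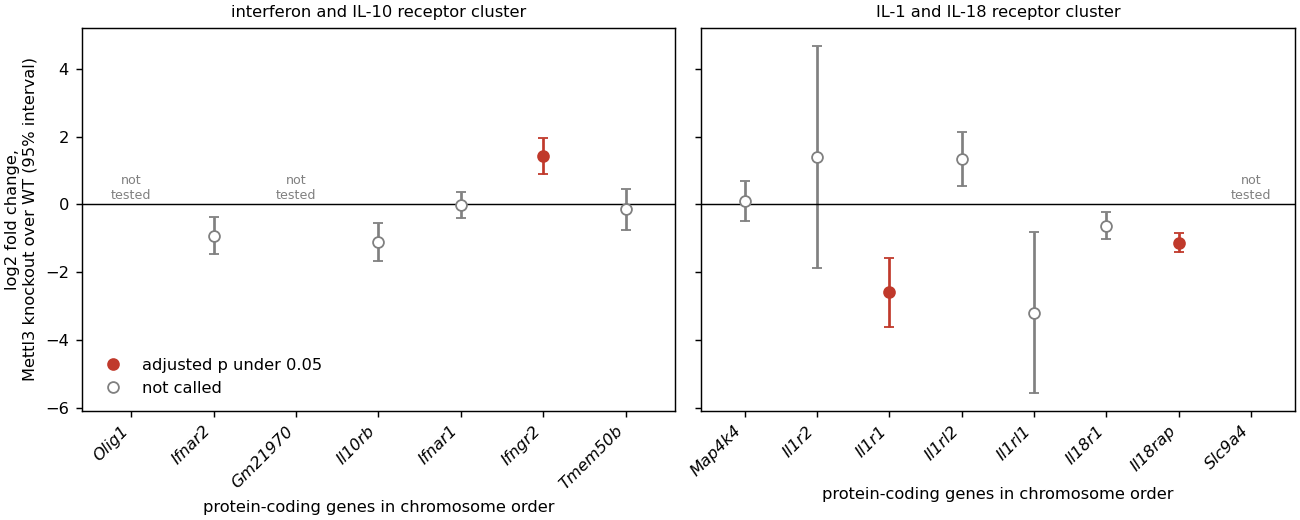
Log2 fold change, Mettl3 knockout over WT, with 95% intervals (edgeR) for protein-coding genes in chromosome order around the interferon receptor genes (left) and the IL-18 receptor genes (right). Filled points passed an adjusted p of 0.05: Ifngr2 at 1.43, Il1r1 at -2.59 and Il18rap at -1.12.

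Beyond the chains, 94 genes of the same pathways were listed by role, of which 87 were tested, 2 rose and 14 fell. That is 18.4% called, with a median log2 fold change of -0.31, against 2.59% and 0.02 over all tested genes. Calls after adjustment in the lists below are read beside the same background. No share of all tested genes is given here for an unadjusted p under 0.05, so counts at that level have no background. The lists were chosen with earlier results of these data known, so this comparison does not test whether the pathways differ from other genes. Without either knockout library 0 were called by edgeR (27 at an unadjusted p under 0.05 in each case, against 34 with all libraries), 8 were called without WT replicate 1 and 5 without WT replicate 2. Adjusted p-values below are from edgeR with all 4 libraries, and the range that follows is over the fits with 1 library left out.

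Among the ligands, 5 of 9 were tested and 1 fell. Ifng, the ligand of the IFN-γ receptor and a product of IL-12 and IL-18 signalling, had 8.71 and 11.5 CPM in the knockout and 27.4 and 33.4 CPM in WT, a difference of -1.58 on the log2 scale (SE 0.29; edgeR adjusted p = 0.0430; range 0.0956 to 0.217). Il6 and Ifnb1 had no count in any library, and Il12a, Il12b, Il18, Il27 and Ebi3 stayed under 1.5 CPM. Little transcript of the other ligands was therefore seen in the sorted cells.

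Of 11 tested partner and related chains, 3 fell and 0 rose, with a median of -0.84. Il23r, which pairs with the Il12rb1 product to form the IL-23 receptor, had 5.71 and 6.98 CPM in the knockout and 41.8 and 37.3 CPM in WT (log2 fold change -2.64, SE 0.29; edgeR adjusted p = 0.00746; range 0.0404 to 0.0689). With Il12rb2 also lower, both partner genes of Il12rb1 fell, while Il12rb1 itself overlapped. Il27ra, which pairs with gp130 as the IL-27 receptor, had 297.7 and 259.1 CPM in the knockout and 530.4 and 465.4 CPM in WT (log2 fold change -0.84, SE 0.12; edgeR adjusted p = 0.0174; range 0.0517 to 0.147). Among other gp130 partners, Lifr, of the LIF receptor, had 4.43 and 2.45 CPM in the knockout and 0 and 0.995 CPM in WT (edgeR adjusted p = 0.179), and Il11ra1, of the IL-11 receptor, had 3.23 and 8.26 CPM in the knockout and 2.74 and 3.26 CPM in WT (edgeR adjusted p = 0.464). The other gene of the list that fell was Il1r1, described above (range 0.0602 to 0.143).

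Of the 14 kinases, adaptors and transcription factors, 1 fell and 0 rose, with a median of -0.18. Stat4, the factor that the IL-12 receptor activates, had 17.8 and 25.2 CPM in the knockout and 74.6 and 121.5 CPM in WT (log2 fold change -2.19, SE 0.31; edgeR adjusted p = 0.0168; range 0.0196 to 0.113). Its knockout libraries, like those of Il12rb2, lay far below both WT libraries. The kinases Jak1, Jak2 and Tyk2 had log2 fold changes of -0.31, -0.17 and -0.35 (edgeR adjusted p = 0.165, 0.863 and 0.285). Stat3 and the IL-18 receptor adaptor Myd88 had -0.45 and -0.10 (edgeR adjusted p = 0.0927 and 0.717).

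Of 13 inhibitors, 1 rose and 2 fell, with a median of 0.00. Socs3, which blocks gp130 signalling and is itself induced by it, had 15.1 and 19.8 CPM in the knockout and 71.3 and 59.9 CPM in WT (log2 fold change -1.91, SE 0.23; edgeR adjusted p = 0.0101; range 0.0503 to 0.0867). Ptpn6, which encodes the phosphatase SHP-1, fell by less, with a difference of -0.49 on the log2 scale (SE 0.09; edgeR adjusted p = 0.0463; range 0.0364 to 0.243). Irak3, an inhibitor of MyD88-dependent signalling by IL-1 and IL-18 receptors, had 24.4 and 25.9 CPM in the knockout and 7.82 and 4.94 CPM in WT (log2 fold change 1.96, SE 0.33; edgeR adjusted p = 0.0329; range 0.0794 to 0.159). The proteases Adam17 and Adam10, which shed the IL-6 receptor, were not called.

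Among 12 target genes of IL-12 and IL-18, 5 fell and 1 rose, with a median of -1.28. Fasl, the death ligand, had 91.7 and 80.5 CPM in the knockout and 242.3 and 406.0 CPM in WT (log2 fold change -1.91, SE 0.25; edgeR adjusted p = 0.0124; range 0.00655 to 0.0996). Tbx21, which encodes T-bet, fell by 0.98 on the log2 scale (SE 0.14; edgeR adjusted p = 0.0202; range 0.0132 to 0.147), and the chemokine gene Xcl1 by 2.81 (SE 0.49; edgeR adjusted p = 0.0358; range 0.106 to 0.184). Il2ra, the high-affinity chain of the IL-2 receptor, had 42.5 and 38.5 CPM in the knockout and 6.69 and 14.8 CPM in WT, and rose by 1.94 (SE 0.34; edgeR adjusted p = 0.0365; range 0.0544 to 0.174). Gzmb, which encodes granzyme B, had 79.6 and 90.7 CPM in the knockout and 214.3 and 622.2 CPM in WT, and fell by 2.29 (SE 0.45; edgeR adjusted p = 0.0487; range 0.00264 to 0.409). Without WT replicate 2 the Gzmb difference was -1.34 on the log2 scale, and Gzmb was not called with RLE factors (0.0511), no filter (0.0658), the filter at 5 CPM (0.139) or voom (0.111). The remaining one that fell was Ifng, given above. Of the 5 that fell, 4 (Ifng, Tbx21, Xcl1 and Gzmb) also stand in the list of NKT1 markers described below, so the counts of these lists are not separate results.

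Of 12 type I interferon targets, 6 were lower and 0 higher at an unadjusted p under 0.05 (median -0.48), and 2 fell after adjustment: Ifit3, with 58.1 and 49.6 CPM in the knockout and 150.7 and 137.2 CPM in WT (log2 fold change -1.42, SE 0.16; edgeR adjusted p = 0.00755; range 0.0412 to 0.0828), and Rsad2, which encodes viperin, with 9.09 and 14.7 CPM in the knockout and 44.99 and 51.9 CPM in WT (log2 fold change -2.03, SE 0.28; edgeR adjusted p = 0.0162; range 0.0613 to 0.114). Of 15 IFN-γ targets, 0 were called in either direction by edgeR (median -0.20), where 2 were higher and 1 lower at an unadjusted p under 0.05 and DESeq2 called 1 higher and 1 lower. The unadjusted counts of these target lists have no share of all tested genes beside them. Of 9 IL-6 targets, 2 fell and 0 rose (median -0.61): Socs3, given above, and Junb, an AP-1 gene, which fell by 0.61 on the log2 scale (SE 0.12; edgeR adjusted p = 0.0475; range 0.0285 to 0.230). Il6ra was higher in the knockout and these were lower.

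**Figure D5:**
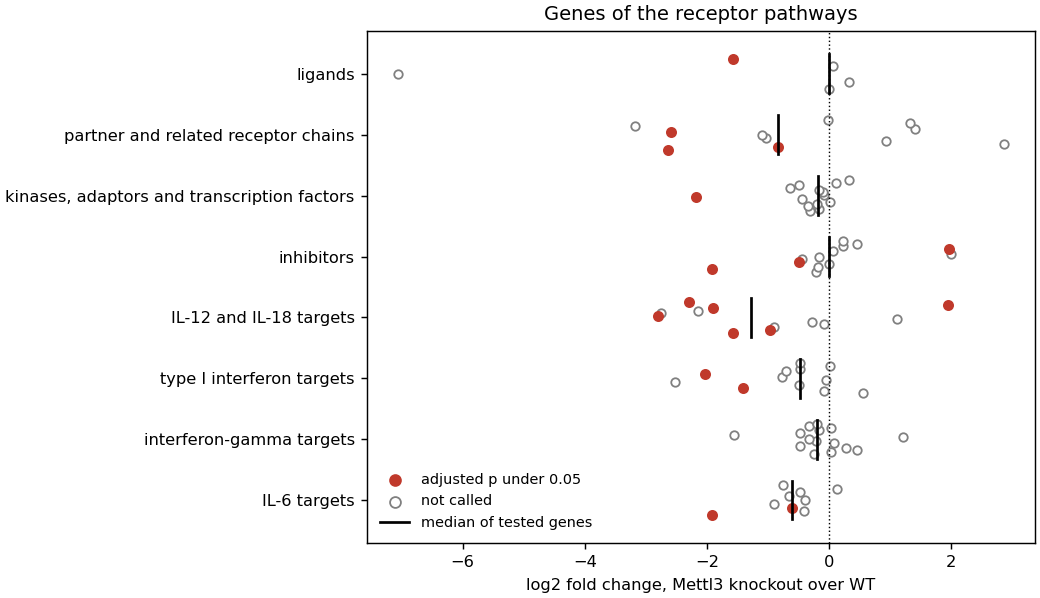
Log2 fold change, Mettl3 knockout over WT, of each tested pathway gene by role (edgeR), with filled points at an adjusted p under 0.05 and a bar at the list's median. The IL-12 and IL-18 targets have the lowest median, -1.28; the far left point is Il27, which had no count in the knockout and under 1 CPM in WT.

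Summed levels of cell type markers were unequal in the genotypes, and their part in the receptor results was not tested. Over all tested genes, edgeR called 1.09% higher and 1.51% lower, and DESeq2 called 9.45% in either direction. No such share is given here for an unadjusted p under 0.05, which some marker counts below use. The marker lists were also chosen with earlier results of these data known. NKT1 markers summed to 2650 and 2602 CPM in the knockout and 5115 and 6838 CPM in WT, and 11 of 12 fell. NKT17 markers summed to 123.4 and 140.9 CPM in the knockout and 538.5 and 458.9 CPM in WT, and 7 of 12 fell, Il23r and Il1r1 among them. Both subsets are known users of the receptors described here, NKT1 cells of IL-12 and IL-18 and NKT17 cells of IL-23 and IL-1. Stage 0 markers, of the earliest iNKT cells, summed to 4005 and 3970 CPM in the knockout and 2544 and 2343 CPM in WT (4 of 11 rose), and those of NKT2 cells to 3630 and 3605 CPM in the knockout and 3257 and 2493 CPM in WT (3 of 11 rose). By DESeq2, 5 stage 0 markers were higher and 1 lower, and 6 NKT2 markers were higher and 1 lower.

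Markers of naive single-positive T cells, in which Il6ra is also expressed, summed to 2000 and 2028 CPM in the knockout and 1114 and 1135 CPM in WT. Of these, 4 of 8 rose, with Ccr7 at 352.6 and 393.9 CPM in the knockout and 149.3 and 140.9 CPM in WT. Ccr7 also stands in the NKT2 list, Lef1, another that rose, in the stage 0 list, and Cd8b1 in the CD4+CD8+ list. The sums and counts of these lists are therefore not separate results. CD4+CD8+ thymocyte markers summed to 1811 and 1718 CPM in the knockout and 1402 and 1339 CPM in WT, with 0 of 11 called by edgeR, 5 higher and 0 lower at an unadjusted p under 0.05, and 5 higher by DESeq2. Myeloid and dendritic markers summed to 475.9 and 527.7 CPM in the knockout and 153.5 and 174.7 CPM in WT, with 2 of 13 higher and 1 lower. Myeloid cells also express the IFN-γ and IL-6 receptors. The 2 that rose were Lyz2, at 324.6 and 385.6 CPM in the knockout and 29.6 and 47.5 CPM in WT, and the macrophage growth factor receptor gene Csf1r, at 29.6 and 15.6 CPM in the knockout and 0.854 and 0 CPM in WT. Siglech (4.24 and 9.91 CPM in the knockout, 0.0711 and 1.27 CPM in WT), Adgre1 and Cd14 were also above WT in both knockout libraries without passing, while Itgam and Tyrobp were under 0.6 CPM in every library. NK cell and ILC1 markers summed to 290.9 and 275.0 CPM in the knockout and 729.4 and 967.8 CPM in WT (3 of 7 fell), with Ncr1 and Eomes under 2.5 CPM, and B cell markers to 139.8 and 145.3 CPM in the knockout and 140.0 and 177.7 CPM in WT (0 of 8 called by edgeR or DESeq2; 1 higher and 1 lower at an unadjusted p under 0.05).

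Of the genes that mark iNKT cells, Zbtb16, which encodes the lineage factor PLZF, had 352.6 and 350.4 CPM in the knockout and 255.5 and 192.3 CPM in WT, while the invariant receptor segments Trav11 and Traj18 were under 4 CPM in every library. The whole list of 8 summed to 3380 and 3234 CPM in the knockout and 2660 and 2844 CPM in WT (1 rose), but most of that sum is Trbc2, Cd5, Cd3e and other genes of all T cells, so it does not check the sort.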

How the data were processed

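RNA of sorted thymic iNKT cells was measured in 4 libraries, 2 per genotype, grouped by the sample labels. The authors deposited raw read counts per gene for 53715 versioned Ensembl IDs, with replicates not pooled. Per the submitters' processing notes, FastQC 0.11.5, STAR 2.6.0a, HTSeq 0.6.1, DESeq2 1.18.1 and build mm10 were used; the sources used here do not give the strand setting, annotation release or filters. Overlapping and antisense genes may share reads. IDs were matched to GENCODE M21 (GRCm38), 53620 without and 51464 with their version; gene spans are printed only for version matches, and 93 symbols stood on more than 1 ID.

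Counts were filtered with filterByExpr, scaled by TMM (factors 1.01 and 1.02 in the knockout, 0.994 and 0.970 in WT) and tested in R 4.3.3 with edgeR 4.0.16 (glmQLFit and glmQLFTest, robust, two-sided, no covariate, 2 residual degrees of freedom). Calls were made at 0.05 after Benjamini-Hochberg adjustment over all genes tested. SE is the log2 fold change over the square root of F. Levels per kb are TMM-scaled CPM divided by the length of the merged exons. Chain ratios used counts plus 0.5 within each library and an exact permutation test. The alternatives were other scalings and filters, DESeq2 1.42.0, limma 3.58.1 voom, a replicate block, a pseudocount of 5 and leaving out each library, which takes a lone library to vary as the other genotype does. The edgeR step was tested on simulated data.

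Members, pathway lists and marker lists were chosen with earlier results of these data known. Named are all 10 chains, Mettl3, up to 4 called genes of each pathway list by smallest p, preset receptor partners and kinases (1 preset gene is not reported here), and up to 3 markers of lists that moved; neighbours on the chromosome, overlapping genes, the uncalled ligands, Lifr, Il11ra1, Adam10, Adam17, Gzmb, Siglech, Adgre1, Cd14, Itgam, Tyrobp, Ncr1, Eomes, Zbtb16, Trav11, Traj18, Trbc2, Cd5 and Cd3e are named beyond that rule, after their values were seen. Libraries of a genotype differed beyond counting noise (chi-square per degree of freedom 27 in the knockout and 42.5 in WT) and were used as separate replicates. Intervals at 95% cover the spread between libraries; reads carry no molecular identifiers, so they are not independent molecules.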

Additional observations from a re-analysis of the deposited data

How the results depend on the processing

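Directions of the 5 called chains held under every alternative run. Those of the 5 chain ratios also held, but the alternatives run could not have reversed them. The ratios did not overlap between the genotypes, so leaving out 1 library keeps the direction. A pseudocount of 5 is small beside the counts, and the replicate block leaves the difference of means unchanged. The number of called chains was 5 with RLE factors, total counts, no filter and voom, 6 at 5 CPM or more in 2 libraries and 7 with DESeq2. It was 0 to 5 with 1 library left out. Genes called over the whole table were 368; at 5 CPM or more in 2 libraries they were 727, with DESeq2 1341, and with 1 library left out 41 to 172. Called pathway genes were 16, and 0 to 8 with 1 library left out. The cause of these changes was not tested, except that leaving out a library leaves 3. Same-numbered libraries did not deviate together over all tested genes (correlation -0.01). A single difference per genotype cannot settle whether the numbers pair the libraries, and the labels do not say. With a replicate block, which leaves 1 residual degree of freedom, 33 genes, 0 chains and 1 pathway gene were called (Il18rap adjusted p = 0.0635, Ifngr1 0.0631, Il6ra 0.0658, Il12rb2 0.102 and Ifngr2 0.119 by edgeR). Chains near 0 changed sign: with total counts only, Il12rb1 was at 0.034, Ifnar1 0.041 and Il6st 0.019 on the log2 scale. With 1 library left out they spanned -0.062 to 0.016, -0.16 to 0.12 and -0.31 to 0.26; Il12rb1 was at 0.016 without knockout replicate 1, Ifnar1 at 0.12 and Il6st at 0.19 without knockout replicate 2, Il6st at 0.26 without WT replicate 1 and Ifnar1 at 0.11 without WT replicate 2. With 2 libraries per genotype, a chain that did not pass may still differ; the widest interval among the chains was that of Il6st.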
